A study of Sus scrofa with 599 samples.

Results

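Boundaries of topologically associating domains (TADs) that were frequent in the upper layer of backfat (ULB) and infrequent in 3 visceral adipose tissues of female Bama pigs formed 62 regions. Each 20-kb grid position that held the start or end of a TAD in any sample was scored by the share of samples, diets pooled, with a TAD end within 40 kb. Positions with a share of at least 60% in ULB and of at most 30% in each of the fat of the greater omentum (GOM), of the mesentery (MAD) and behind the peritoneum (RAD) were kept, and kept positions within 100 kb of each other were merged. This left 107 of 66113 positions. The regions are numbered R1 to R62 along the genome. With GOM in the place of ULB the same rule gave 16 regions from 23 positions, and with MAD or RAD it gave 0. The regions were chosen by their TAD-end shares in these samples, so their shares, and the compartment index from the same Hi-C libraries, are a description and were not tested between depots.

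The study followed adipose tissue through weight gain and weight loss in adult female pigs of this Chinese miniature breed. The NC group was fed a normal diet, WG pigs had gained weight on a high-fat diet, and WL pigs had gone through that weight gain and were then held at a small part of the normal intake. ULB is subcutaneous, and the other 3 depots lie in the abdomen. Hi-C was available for 9 GOM, 12 MAD, 12 RAD and 5 ULB samples of NC, for 46, 37, 40 and 39 of WG, and for 10 of each depot of WL, which makes 65, 59, 62 and 54 samples by depot. All samples are bulk, so fewer cells of a type and less signal or RNA per cell cannot be told apart. The study's Hi-C protocol used the adipocyte layer of the fixed tissue, and its RNA extraction names no such step. The Hi-C and RNA values can therefore come from different mixtures of cells.

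A TAD is a stretch of chromosome whose loci contact each other more often than they contact loci outside it. Cohesin extrudes loops of chromatin and is held at many boundaries by the zinc finger protein CTCF bound to its motif, and active promoters also lie at many boundaries. Enhancers reach promoters mostly within the same TAD, so a boundary present only in some tissues can place a gene among different regulatory elements there.

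The sequences below, from the RefSeq genome of build Sscrofa11.1, show what a CTCF-type core looks like in 6 of the 12 regions with the widest gap between ULB and the other depots. Each holds the match nearest to the highest-share position of its region, in capitals, with 40 bases on either side, written 5′ to 3′ on the strand of the match. In the first 3 lines the capitals mark the strict core, CCAC, any base, AGG, any base and GGC. In the next 3 they mark a looser core, CCA, any 2 bases, AG, any 2 bases and GGC, which takes in every match of the strict one.
R48 (chr15:23602932-23603023, + strand, intergenic, 9206 bases from the CCDC93 start): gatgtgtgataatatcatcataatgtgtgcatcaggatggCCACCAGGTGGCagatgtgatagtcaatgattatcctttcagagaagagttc
R37 (chr9:75187431-75187522, - strand, intron of ASB4): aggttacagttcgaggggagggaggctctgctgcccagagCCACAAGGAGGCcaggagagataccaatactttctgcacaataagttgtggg
R43 (chr13:89969709-89969800, - strand, exon of LOC102162381, 170 bases from the COMMD2 start): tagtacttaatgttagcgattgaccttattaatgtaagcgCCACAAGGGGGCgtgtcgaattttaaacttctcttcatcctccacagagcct
R49 (chr15:23774975-23775066, + strand, intergenic): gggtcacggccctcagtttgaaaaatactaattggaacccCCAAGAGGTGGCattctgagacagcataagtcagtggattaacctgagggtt
R51 (chr15:24306658-24306749, + strand, intergenic): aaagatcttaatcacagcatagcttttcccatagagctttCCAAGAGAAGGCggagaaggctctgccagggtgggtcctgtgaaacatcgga
R32 (chr8:132994738-132994829, - strand, intron of ARHGAP24): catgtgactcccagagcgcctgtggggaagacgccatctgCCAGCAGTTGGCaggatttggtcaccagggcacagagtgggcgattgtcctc
The 250 bases before the start of EN1 are printed because the 4 leading regions lie from the start of CCDC93 towards this gene. They hold 74% G and C and 0 matches of either motif on both strands.
EN1 promoter (chr15:24408378-24408627, - strand): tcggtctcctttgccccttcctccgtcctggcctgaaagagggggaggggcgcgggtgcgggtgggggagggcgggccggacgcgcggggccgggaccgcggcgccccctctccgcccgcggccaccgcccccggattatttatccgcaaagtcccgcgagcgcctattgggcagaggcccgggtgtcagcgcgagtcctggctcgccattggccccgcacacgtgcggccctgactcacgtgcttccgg

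Such matches were no more frequent in the regions than elsewhere. The strict core was present on either strand within 40 kb of the highest-share position in 12 of 62 regions (19.4%), against 21.5% of all positions. The looser core was present in 52 regions (83.9%), against 85.0% of all positions. The G and C content of these 80-kb windows had a median of 40.2% over regions, from 33.3% to 51.7%, and of 40.4% over all positions.

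Over the 62 regions, the share of samples with the boundary ran from 61.1% to 94.4% in ULB with a median of 64.8%. It ran from 0% to 29.2% for GOM with a median of 18.5%, from 0% to 28.8% for MAD with a median of 15.3%, and from 1.61% to 29.03% for RAD with a median of 24.2%. RAD was the depot closest to ULB in 42 regions, GOM in 15 and MAD in 5. Just inside the limits, 22 kept positions had a ULB share of 61.1% and the highest share of another depot was 29.2%. Just outside them, 26 positions had a ULB share of 59.3%, and 2 positions had a share of 30.5% in another depot. The regions lay on 16 of 18 autosomes with at most 7 on a chromosome. Of them, 35 were a lone position and 12 lay within 1000 kb of another region.

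**Figure D1:**
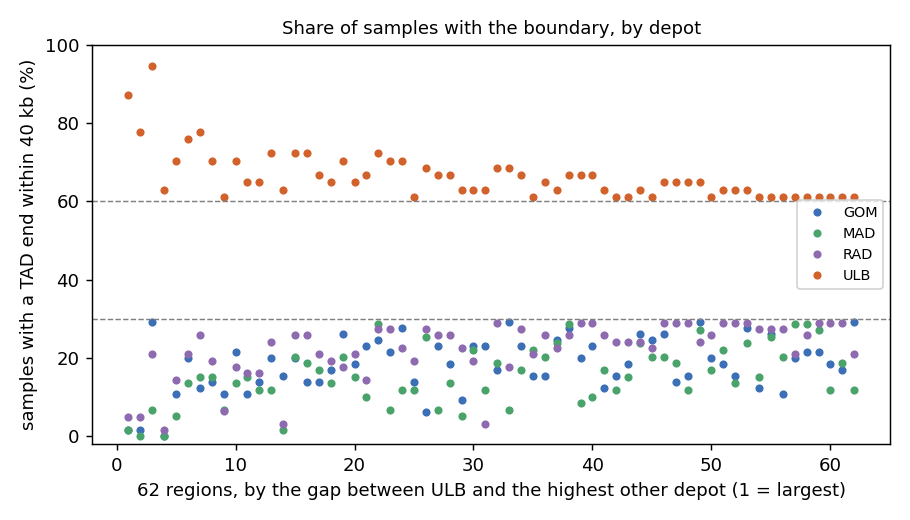
Share of samples with a TAD end within 40 kb (%) at the highest-share position of each of the 62 regions, ordered by the gap between ULB and the highest other depot, with 1 point per depot and dashed lines at the limits of the rule, 60% and 30%. The 4 regions from the CCDC93 start towards EN1 stand at the left with the widest gaps, and most other regions sit just above the ULB limit.

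The number of regions per sample restates the shares that chose them and does not show whether regions came together. A ULB sample held 22 to 51 of the 62 regions, with a median of 42. A GOM sample held 3 to 24 (median 11), a MAD sample 3 to 20 (median 9) and a RAD sample 4 to 27 (median 13). The 5 NC ULB samples held 43, 47, 41, 45 and 45 regions, and medians were 43 in WG and 34.5 in WL. ULB had more TAD ends in all, with a mean of 5536 per sample against 5105 in the other depots, a ratio of 1.08. The part of this difference in the region count was not tested. Among samples with 5000 to 5500 TAD ends, a restriction chosen after seeing the data, the rule gave 30 regions for ULB and also 30 for GOM.

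**Figure D2:**
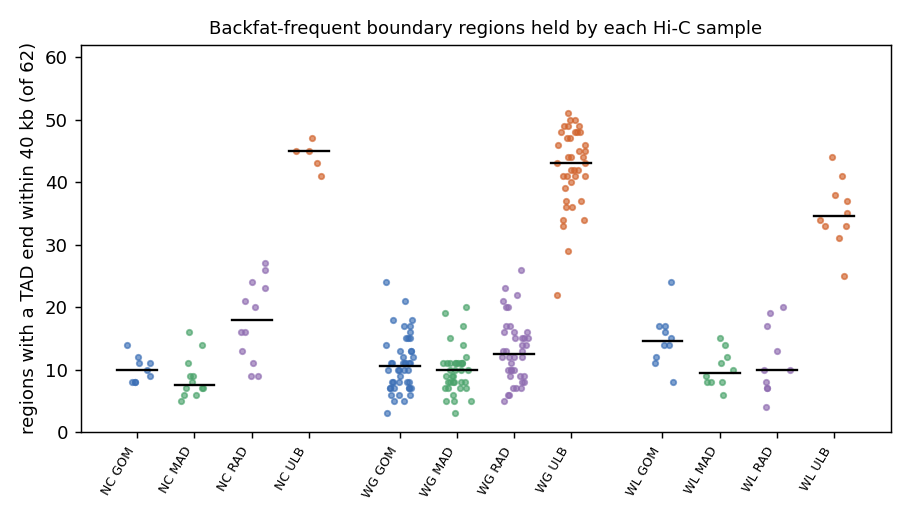
Number of the 62 regions with a TAD end within 40 kb in each Hi-C sample, by depot and diet, with 1 point per sample and a line at each group median. ULB samples run from 22 to 51 and samples of the other depots from 3 to 27.

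In the visceral depots these positions mostly lay inside a TAD. The rule, which keeps positions far from TAD ends in those depots, fixes this and favours long TADs there. The highest-share position was over 40 kb from both ends of the TAD around it in a median over regions of 81.5% of GOM, 84.7% of MAD and 75.8% of RAD samples, against 35.2% of ULB samples. The lengths of all TADs that reached within 40 kb of the position were averaged in each sample. The median of this length, over samples and then regions, was 420 kb in ULB, 830 kb in RAD, 850 kb in MAD and 860 kb in GOM. In a sample with the boundary it can average the TADs on both sides, and elsewhere it is mostly that of the TAD around the position.

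The 4 widest gaps, R49, R50, R48 and R51, stood side by side on chromosome 15 from the start of CCDC93 towards EN1. CCDC93 encodes a subunit of the complex that recycles membrane proteins from endosomes, INSIG2 next to it encodes an endoplasmic reticulum protein that holds back sterol synthesis, and EN1 encodes the engrailed homeobox transcription factor of dorsal and ventral patterning. R48 (chr15:23560000-23620000) was at a TAD end in 94.4% of ULB samples, 29.2% of GOM, 6.78% of MAD and 20.97% of RAD. R48 covers the start of CCDC93, and its highest-share position lies 6.23 kb outside that start. R49 (chr15:23760000-23820000) was at a TAD end in 87.0% of ULB samples, 1.54% of GOM, 1.69% of MAD and 4.84% of RAD. R50 (chr15:23940000-24140000) was at a TAD end in 77.8% of ULB samples, 1.54% of GOM, 0% of MAD and 4.84% of RAD. R51 (chr15:24300000-24320000), which ends 88.4 kb from the EN1 start on the side of the gene's 3′ end, was at a TAD end in 63.0% of ULB samples, 1.61% of RAD samples and 0% of GOM and MAD samples.

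The 4 regions were also counted together in each sample, each read at its highest-share position. R50 peaks at 23940000 and again at 24140000, each in 77.8% of ULB samples, and only the first peak was read. All 4 were held by 32 of 54 ULB samples, 3 of the 4 by 12 samples, and 0 by 3 samples, which were of WG. Of the 186 samples of other depots, 1 RAD sample held all 4, and 1 GOM and 1 RAD sample held 3. All 4 were held by 3 of 5 NC, 23 of 39 WG and 6 of 10 WL samples of ULB. The 848 kb from the start of R48 to the EN1 start were cut into a median of 6 TADs in ULB, from 1 to 7, and 46 of 54 ULB samples had 4 or more. The median was 1 in each other depot, and 4 or more TADs were found in 1 GOM, 0 MAD and 2 RAD samples.

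The EN1 start (gene at chr15:24402605-24408377, - strand) itself lay within 40 kb of a TAD end in 53 of 54 ULB samples (98.1%), and also in 71.0% of RAD, 47.7% of GOM and 47.5% of MAD samples, so it is no member of the set. The TAD that held the EN1 start had a median length of 120 kb in ULB, 1020 kb in RAD, 1120 kb in MAD and 1240 kb in GOM. In ULB its median start was 24300000, the place of R51, and its median end was 24420000. In the other depots its median start was 23420000 or 23460000, beyond the start of CCDC93, and the whole span from R48 to EN1 lay in 1 TAD in 52 of 65 GOM, 55 of 59 MAD, 50 of 62 RAD and 4 of 54 ULB samples. In ULB the TADs at the starts of CCDC93, INSIG2 and EN1 had median lengths of 180, 200 and 120 kb, and their median starts were 23420000, 23600000 and 24300000.

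**Figure D3:**
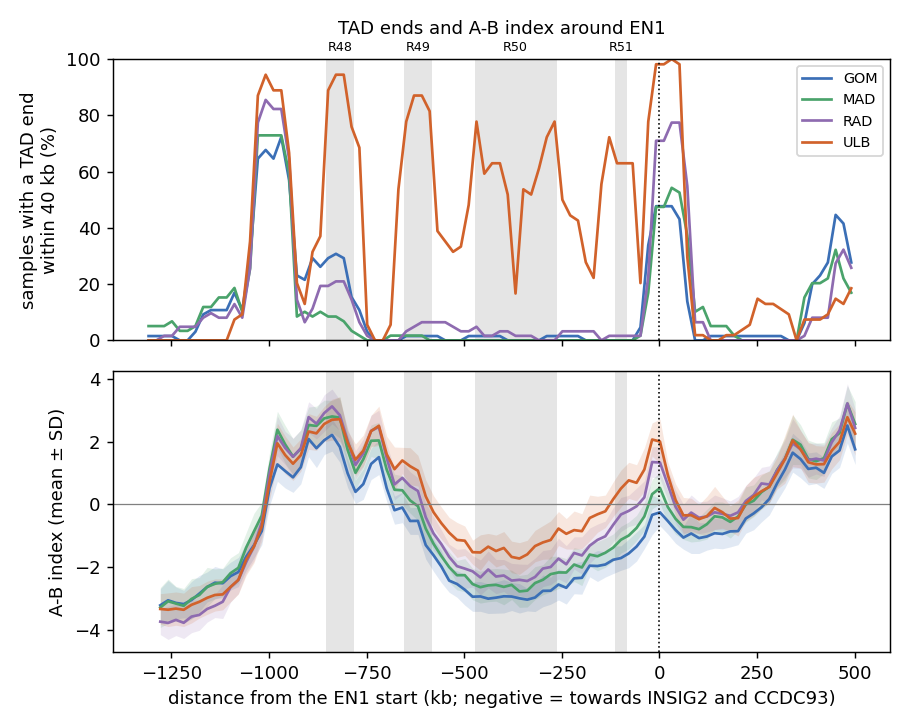
Share of samples with a TAD end within 40 kb (%, upper panel) and A-B index (mean ± SD over samples, lower panel) by depot against distance from the EN1 start in kb. The ULB line has peaks at R48, R49, R50 and R51 where the other 3 depots stay low, and the ULB index lies above the others at R49, R50 and R51.

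The other regions with the widest gaps lay near genes of varied function. R9 (chr2:24440000-24460000, 70.4% of ULB samples and at most 14.5% of another depot) lies 87.6 kb from the start of RAG2, part of the recombinase of lymphocytes. R21 (chr4:57780000-57820000, 77.8% and 25.8%) overlaps ZC2HC1A, and R22 (chr4:58220000, 75.9% and 20.97%) lies 341 kb from PKIA, an inhibitor of protein kinase A. R32 (chr8:132980000-133020000, 70.4% and 19.4%) lies in ARHGAP24, which switches off Rac. R37 (chr9:75180000, 61.1% and 10.8%) lies in ASB4, 80.1 kb from PDK4. R45 (chr13:105400000-105440000, 70.4% and 21.5%) has its highest-share position 432 kb from the start of BCHE, which encodes a cholinesterase and was not matched to an expression identifier. R43 (chr13:89960000-89980000, 64.8% and 16.1%) covers the start of COMMD2. R56 (chr16:32220000, 64.8% and 16.1%) lies in ITGA1, the collagen-binding integrin subunit alpha 1.

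Gene content around the regions lay between that of all positions and that of boundaries common to all depots. A gene start within 100 kb of the highest-share position was missing for 37.1% of regions, 45.98% of all positions and 17.3% of the 11230 positions at 60% or more in all 4 depots. The highest-share position was inside a gene for 30 of 62 regions (48.4%), against 44.3% of all positions.

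Between diets within ULB, which the rule pooled, no position was called at an adjusted p below 0.05. Fisher's exact test (2-sided, Benjamini-Hochberg over 66113 positions) called 0 positions (0%) between NC and WG and 0 (0%) between WG and WL. Over all positions the lowest adjusted p of this test was 0.0609 between NC and WG and 0.209 between WG and WL. The first is the floor for 5 against 39 samples. A full switch at a lone position could thus not have been called between NC and WG. At an unadjusted p below 0.05 it found 1279 positions and 2 of 62 regions in the first, and 2266 positions and 5 regions in the second. The lowest adjusted p among the regions was 0.859681, for R29 on chromosome 7, held by 29 of 39 WG and 1 of 10 WL samples. R62 on chromosome 18 was held by 0 of 5 NC and 30 of 39 WG samples, and R26 on chromosome 6 by 21 of 39 WG and 10 of 10 WL samples. Over the regions the median share of NC samples was 80%, that of WG samples 66.7% and that of WL samples 55%. The median difference at the regions was -8.21 points from NC to WG and -14.1 points from WG to WL, against 0 over all positions. The rule kept regions for a high pooled ULB share, and 39 of the 54 ULB samples that set it were WG. That choice alone can put the WL shares below those of WG. All positions, with a median ULB share of 24.1%, are thus no like baseline for these differences or for the counts at an unadjusted p below 0.05. The regions from the CCDC93 start towards EN1 were held in every diet. R49 was held by 5 of 5 NC, 34 of 39 WG and 8 of 10 WL samples, and R48 by 5, 36 and 10.

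The A-B index, a score without unit that is above 0 in the active compartment A and below 0 in compartment B, differed between ULB and the other depots in both directions over the regions. ULB minus the mean of the other 3 depots had a median of 0.019 over regions, from -0.97 to 1.63, and of 0.073 over all 113298 bins, of which 90% lay between -0.58 and 0.78. ULB was above all 3 other depots in 26 regions (41.9%, against 38.5% of bins) and below all 3 in 18 (29.03%, against 23.7% of bins). All 4 depots were above 0 in 28 regions and at or below 0 in 28. The difference was above 0.75 in 7 regions (11.3%, against 5.51% of bins), R22, R32, R40, R42, R49, R50 and R51, and below -0.75 in 2 regions (3.23%, against 2.59% of bins), R25 and R33. R40 was among the 7 through a few samples of GOM and RAD. The ULB median there was 5.83, beside 5.53, 5.58 and 5.56 for GOM, MAD and RAD, while 5 of 65 GOM and 4 of 62 RAD samples were at or below 0, down to -6.72 and -5.64. With depot medians in place of means, a choice made after seeing the data, its difference was 0.27, R3 took its place, and the other 6 stayed (7 regions, against 6.10% of bins).

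R49, R50 and R51, between CCDC93 and EN1, were among the 7. At R51 the index was -2.44, -1.62 and -0.997 (lowest, median and highest) in GOM, -2.09, -1.09 and 0.16 in MAD, -1.33, -0.26 and 0.64 in RAD, and -0.40, 0.62 and 1.99 in ULB. It was above 0 in 50 of 54 ULB, 17 of 62 RAD, 1 of 59 MAD and 0 of 65 GOM samples. At R49 it was above 0 in 51 ULB, 22 RAD, 1 MAD and 0 GOM samples, with medians of 0.57, -0.07, -0.50 and -0.98. R49 and R51 were the regions whose mean was above 0 in ULB only, and RAD lay between ULB and the other 2 depots at both. R50 stayed in compartment B in every sample of every depot, at medians of -1.39 in ULB, -2.24 in RAD, -2.50 in MAD and -2.91 in GOM. R48 was in compartment A in every sample, with medians of 2.23 in ULB and 2.34 in RAD. R22 was below 0 in every sample, with medians of -4.14 in GOM and MAD, -3.75 in RAD and -2.47 in ULB.

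**Figure D4:**
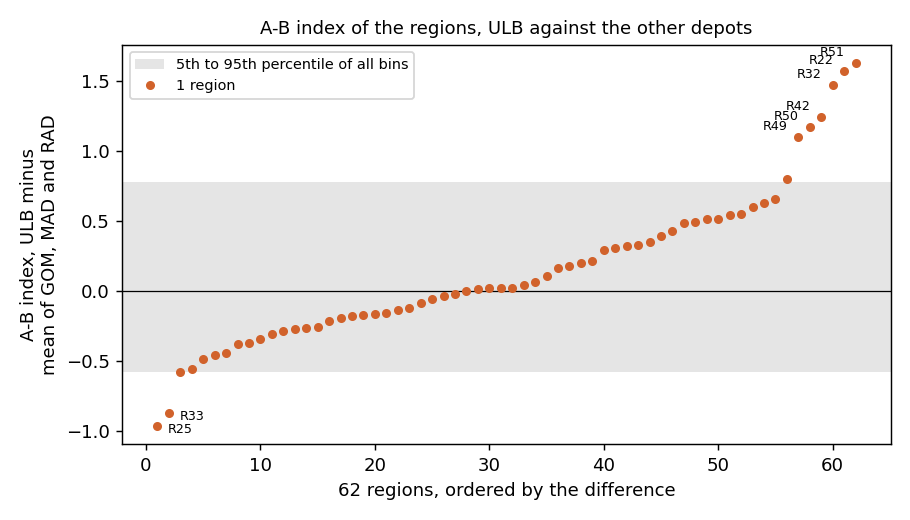
A-B index of each of the 62 regions, ULB minus the mean of GOM, MAD and RAD (no unit), in rising order, with the band that holds 90% of all bins (-0.58 to 0.78). The differences lie on both sides of 0, from -0.97 to 1.63, and the labelled regions between CCDC93 and EN1 are R49, R50 and R51 on the high side.

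Acetylation of H3K27, a mark of active enhancers and promoters, was given as 18 tables pooled over samples, with no replicates. An H3K27ac region lay within 40 kb of the highest-share position for 50% to 64.5% of the boundary regions in the 4 ULB tables, against 39.6% to 49.6% of all positions. The shares in the other depots were alike, 56.5% to 64.5% in GOM (48.6% to 54.7% of all positions), 50% to 64.5% in MAD (45.3% to 50.9%) and 43.5% to 62.9% in RAD (40.5% to 52.6%). R22 had an H3K27ac region nearby in 4 of 4 ULB tables and in 0 tables of the other depots. R51 had such a region in 4 of 4 ULB, 3 of 4 RAD, 1 of 5 MAD and 0 of 5 GOM tables. R50 had it in 3 of 4 ULB, 1 of 4 RAD and 0 of the other tables, and R49 in all 18. Between R48 and EN1, H3K27ac regions covered 49.4 to 118 kb in ULB and 34.6 to 103.2 kb in RAD, against 4.60 to 15.8 kb in GOM and 5.40 to 14.6 kb in MAD.

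Expression was measured in 236 separate RNA-seq libraries, with 3337098 to 22939420 estimated counts per sample. ADIPOQ, the adipocyte hormone, was abundant in every depot, and the 6 adipocyte markers summed to a median of 15100, 18003, 21989 and 15669 TPM, a length-normalized share of transcripts, in GOM, MAD, RAD and ULB of WG. In GOM the 3 matched mesothelial markers of 7 listed summed to 36.4 to 660 TPM in WG, with a median of 170, against medians of 4.51 in ULB, 9.23 in RAD and 12.2 in MAD. Their medians in GOM of WG were 111 TPM for KRT8, 40.2 for WT1, which is also a depot transcription factor, and 0.0436 for CALB2. The share of TPM on protein-coding genes was below 90% in 7 of 9 GOM, 2 of 12 MAD, 6 of 12 RAD and 2 of 5 ULB samples of NC, in 8 of 10 GOM, 7 of 10 MAD, 3 of 10 RAD and 3 of 10 ULB samples of WL, and in 4 of 45, 2 of 36, 3 of 39 and 1 of 38 of WG. The depots compared within NC and within WL thus differed in this share. With the share as a term, 20, 9 and 5 near genes were called against GOM, MAD and RAD in NC and 14, 13 and 4 in WL, by the rule given next, against 22, 8 and 5 and 14, 15 and 4 without it. The part of the mesothelial markers in the GOM results was not tested.

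A start within 100 kb of a region was found for 120 protein-coding genes, at 43 of the 62 regions, and 87 of them matched an expression identifier by symbol. Genes that exceeded 0.5 TPM in 80% or more of either group's samples, 74 to 77 near genes per comparison, were tested with edgeR, and a call needed a fold change over 1.5 with an adjusted p under 0.05. The comparisons within a diet share the ULB samples.

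Genes near the regions were called about as often as genes elsewhere. In WG, 12 of 75 were called between ULB and GOM (17.9% of all 13705 genes tested), 6 of them higher in ULB (7.59% of all) and 6 lower (10.3% of all). Against MAD, 15 of 76 were called (14.4% of all), 6 higher (6.25%) and 9 lower (8.18%). Against RAD, 7 of 74 were called (9.27% of all), 2 higher (5.20%) and 5 lower (4.07%). In NC, 22 of 77 were called against GOM (25.4% of all), 10 higher (13.3%) and 12 lower (12.1%), and 10 were called with the replicate number as a block. Against MAD in NC, 8 of 75 were called (7.73% of all), 6 higher (4.57%) and 2 lower (3.17%), and against RAD, 5 of 76 were called (4.32% of all), 4 higher (2.92%) and 1 lower (1.40%). In WL, 8 of 76 were higher than in GOM (6.16% of all) and 6 lower (9.81% of all). Against MAD in WL, 15 of 77 were called (14.4% of all), 9 higher (5.54%) and 6 lower (8.89%), and against RAD, 4 of 75 were called (4.34% of all), 2 higher (2.29%) and 2 lower (2.05%). The median log2 fold change of the near genes in WG was -0.01 against GOM, 0.03 against MAD and -0.02 against RAD, beside 0.00, -0.02 and 0.01 over all genes tested.

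In WG, 7 near genes of 74 were called in 1 direction against all 3 other depots, EN1 and NCAM2 higher (2.94% of all genes tested) and PDK4, TAGLN, TES, PAMR1 and ITGA1 lower (2.33% of all). EN1 and NCAM2 were higher in ULB in all 9 comparisons of depots.

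EN1, near R51, followed the order GOM, MAD, RAD, ULB in the medians of every diet. In NC the 5 ULB samples had 12.4, 8.36, 14.5, 7.31 and 13.7 TPM, and the highest sample elsewhere had 4.18 TPM, in RAD. In WG the lowest, median and highest values were 0, 0.258 and 0.856 TPM in GOM, 0, 0.316 and 1.08 in MAD, 1.87, 3.95 and 8.25 in RAD, beside 3.67, 12.8 and 23.9 in ULB. In WL they were 2.50, 4.55 and 7.36 TPM in RAD and 10.2, 16.2 and 25.8 in ULB. ULB and RAD did not overlap in NC and WL and overlapped in WG, and GOM and MAD stayed below every ULB sample in each diet. The log2 fold change of EN1 against RAD was 1.82 ± 0.22 (SE, n = 5 and 12, edgeR adjusted p = 3.05381e-05) in NC, 1.65 ± 0.10 in WG (edgeR adjusted p = 5.40197e-24) and 1.69 ± 0.25 in WL (edgeR adjusted p = 8.71471e-05). Against GOM it was 6.85, 5.55 and 5.34 in NC, WG and WL, and against MAD 4.91, 5.07 and 4.86. EN1 did not pass the test between diets in ULB, with a log2 difference of 0.08 ± 0.18 from NC to WG (edgeR adjusted p = 0.902606) and of 0.24 ± 0.14 from WG to WL (edgeR adjusted p = 0.226837).

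The 2 genes that mostly shared a large TAD with EN1 in the visceral depots had smaller fold changes. CCDC93 had medians of 47.0, 45.9, 50.6 and 56.0 TPM in GOM, MAD, RAD and ULB of WG, and INSIG2 had 20.4, 20.3, 23.2 and 23.99 TPM, with overlapping ranges. The log2 fold change of CCDC93 in WG was 0.40 ± 0.06 against GOM, 0.31 ± 0.04 against MAD and 0.20 ± 0.04 against RAD, under the fold limit in each (largest edgeR adjusted p = 9.39568e-05). That of INSIG2 was 0.35 ± 0.08 against GOM, 0.32 ± 0.08 against MAD and 0.06 ± 0.09 against RAD (edgeR adjusted p = 0.617773 for RAD). INSIG2 was called in NC against GOM, a call that ended with the block and without NC ULB replicate 2, where the log2 fold change was 0.55, and with the share of TPM on protein-coding genes as a term.

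NCAM2, a neural cell adhesion molecule whose gene holds R46 on chromosome 13, 83.7 kb from its start, varied widely within ULB. The 5 NC ULB samples had 1.48, 7.11, 0.492, 8.09 and 9.15 TPM, against 0.197, 0.478 and 1.18 (lowest, median, highest) in RAD. In WG the ULB values ran from 0.373 over 3.90 to 22.2 TPM, while the highest sample was 0.593 in GOM, 0.699 in MAD and 1.86 in RAD. ULB overlapped the other depots in both diets through its lowest samples. The log2 fold change in WG was 4.58 ± 0.25 against GOM, 3.79 ± 0.25 against MAD and 3.53 ± 0.27 against RAD (edgeR adjusted p = 1.39791e-18 for RAD). In ULB it fell from WG to WL, with a log2 fold change of -1.499 ± 0.47 (edgeR adjusted p = 0.0219341), to a median of 1.42 TPM, a call that was lost with the share of TPM on protein-coding genes as a term (-1.61).

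The 5 genes lower in ULB differed by less. PDK4, the kinase that turns off pyruvate dehydrogenase in fasting, had a median of 351 TPM in ULB of WG, from 30.0 to 1763, against 869 in RAD, 925 in GOM and 1041 in MAD. Its log2 fold change against RAD was -0.85 ± 0.25 (edgeR adjusted p = 0.0051798), and it was called in WG only, although the 3 diets were not tested against each other for this. TAGLN, an actin-binding protein of smooth muscle near R36, had a median of 223 TPM in ULB, 362 in RAD, 386 in GOM and 468 in MAD. The smooth muscle markers MYH11, ACTA2 and DES, all 3 matched, summed to 32.3 to 556 TPM (median 211) in ULB, 29.3 to 710 (median 173) in GOM, 188 to 932 (median 422) in MAD and 88.0 to 572 (median 230) in RAD, and their part in the TAGLN values was not tested.

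TES, a protein of focal adhesions near R60, was lower in ULB in WG and WL in each comparison. Its medians in WG were 23.2 TPM in ULB, 43.1 in GOM, 39.9 in MAD and 36.6 in RAD, with a log2 fold change of -0.68 ± 0.10 against RAD (edgeR adjusted p = 4.16449e-08). ITGA1, which R56 lies in, had 42.6, 41.3, 48.02, 31.2 and 45.1 TPM in the NC ULB samples, below the 48.6 to 101 TPM of RAD. In WG the medians of ITGA1 were 57.9 TPM in ULB, 86.7 in GOM, 92.7 in MAD and 96.6 in RAD, and the log2 fold change against GOM, -0.59, stood at the fold limit and fell short of it with the block or without the filter.

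PAMR1, a secreted protein with a peptidase-like domain whose start lies inside R10, changed with diet in ULB. It had 15.9, 5.93, 16.6, 9.01 and 7.80 TPM in NC, then 1.69, 3.16 and 10.4 (lowest, median, highest) in WG and 3.92, 6.51 and 10.9 in WL. It fell from NC to WG, with a log2 fold change of -1.74 ± 0.24 (edgeR adjusted p = 7.96051e-06) and rose from WG to WL by 0.81 ± 0.19 (edgeR adjusted p = 0.00213847). In WG its medians were 5.47 TPM in RAD, 11.11 in MAD and 17.4 in GOM. PAMR1 did not pass the test between ULB and any other depot in NC.

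Few near genes were called between diets in ULB. From NC to WG, 2 of 75 were called (2.38% of all), TFEC near R60 as higher (0.507%) and PAMR1 as lower (1.87%). TFEC, a transcription factor of macrophages and the osteoclast lineage, had 12.0, 5.01, 7.40, 6.31 and 8.25 TPM in NC and a median of 14.4, from 8.10 to 30.9, in WG. The call of TFEC (log2 fold change 0.92 ± 0.25, edgeR adjusted p = 0.0257685) was lost without NC ULB replicate 5, 7, 9 or 12, where the log2 fold change was 0.82 to 0.91, and with the share term (0.87). The 6 leukocyte markers summed to 96.3 to 200 TPM (median 149) in ULB of NC and 87.3 to 418 (median 195) in WG, and their part in the TFEC values was not tested. From WG to WL, 3 of 75 were called (8.12% of all), PAMR1 as higher (3.22%) and NCAM2 and LRRN3 as lower (4.90%). LRRN3, a neuronal membrane protein near R61, went from a median of 9.62 to 6.71 TPM, a log2 fold change of -0.84 ± 0.19 (edgeR adjusted p = 0.00117245).

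TNFSF9, the 4-1BB ligand near R12, is named after its values were seen. It had medians of 16.5 TPM in ULB, 14.95 in RAD, 3.83 in GOM and 3.14 in MAD of WG. It was higher in ULB than in GOM and MAD in all 3 diets. Against RAD it was called in NC only, with a log2 fold change of 1.21 ± 0.31 (edgeR adjusted p = 0.0298196).

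**Figure D5:**
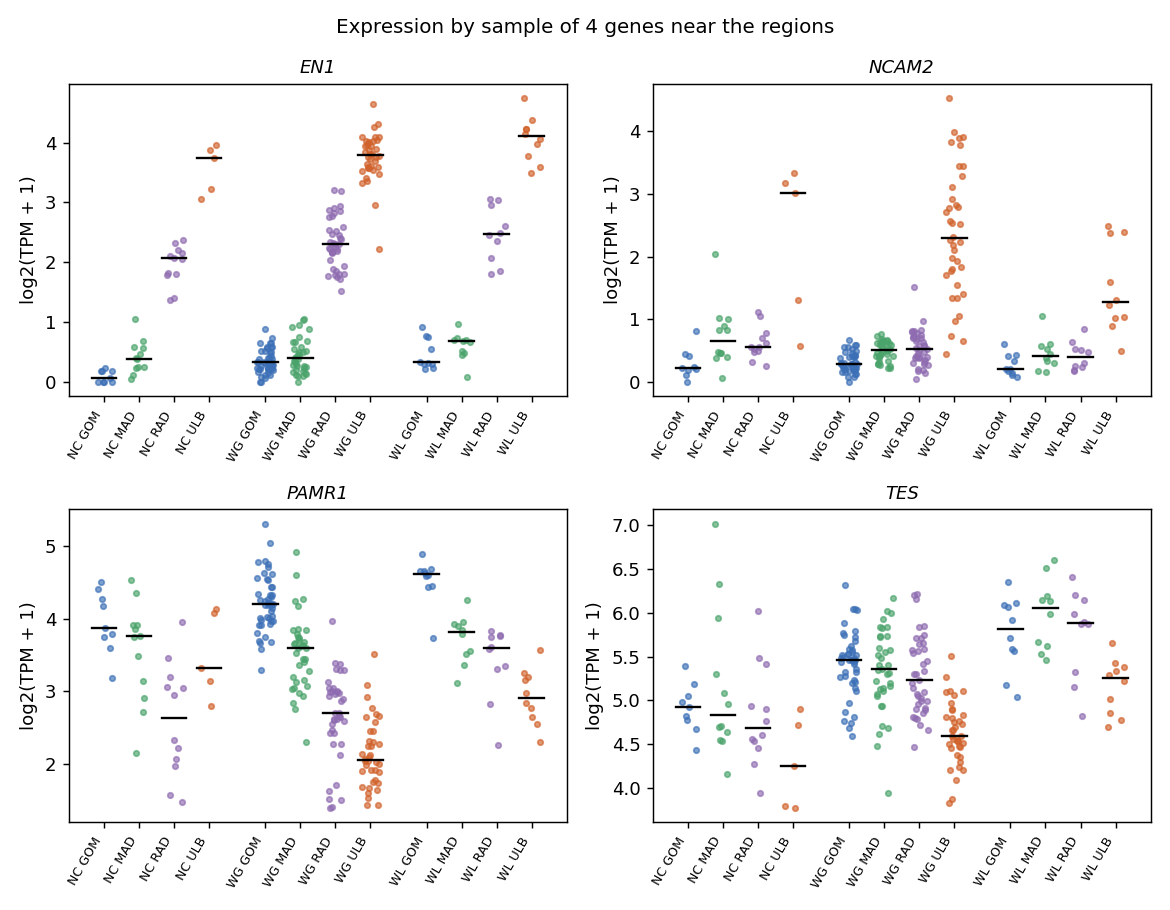
Expression of EN1, NCAM2, PAMR1 and TES as log2(TPM + 1), by depot and diet, with 1 point per RNA-seq sample and a line at each group median. EN1 rises from GOM and MAD over RAD to ULB in each diet, NCAM2 is spread widely in ULB, PAMR1 is lower in ULB of WG than of NC, and TES in WG has its lowest median in ULB.

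The genes that build boundaries were seldom called between depots. Of 20 listed genes of CTCF, cohesin and their regulators, 19 matched and 17 or 18 were tested in a comparison. Among the 9 depot comparisons the 1 call was SMC1A, a cohesin subunit, lower in ULB than in GOM of NC. Its log2 fold change was -0.61 ± 0.16 (edgeR adjusted p = 0.00913365). That comparison called 1 of 17 listed genes, against 25.4% of all genes tested (12.1% lower). The other depot comparisons called 0 listed genes, against 4.32% to 17.9% of all genes. CTCF had log2 fold changes of -0.06 ± 0.08 against GOM, -0.11 ± 0.08 against MAD and 0.03 ± 0.08 against RAD in WG (smallest edgeR adjusted p = 0.279388). Between diets in ULB the 1 call was LDB1, a looping cofactor, which fell from WG to WL with a log2 fold change of -0.61 ± 0.21 (edgeR adjusted p = 0.0368492). It was 1 of 17 listed genes tested there, against 8.12% of all genes called (4.90% lower). The medians of the list in WG were -0.02, -0.05 and -0.01 against GOM, MAD and RAD, beside 0.00, -0.02 and 0.01 over all genes.

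Transcription factors of depot identity were called often, which can follow from the choice of such a list. Of 30 listed, 28 matched. In WG, 11 of 23 tested were higher in ULB than in GOM (7.59% of all genes tested) and 7 lower (10.3%). Against MAD, 10 of 21 were higher (6.25% of all) and 4 lower (8.18%), and against RAD, 7 of 20 were higher (5.20% of all) and 4 lower (4.07%). The study had singled out EN1, TCF21, WT1, IRX3 and HOXD genes on these samples, so neither their calls nor their directions are independent evidence. The median log2 fold changes in WG were 0.47, 0.56 and 0.12 against GOM, MAD and RAD. TCF21, a factor of visceral mesenchyme, had medians of 0.0542 TPM in ULB, 0.371 in RAD, 6.73 in GOM and 8.33 in MAD of WG. A TAD end lay within 40 kb of its start in 16.9% of GOM, 28.8% of MAD, 51.6% of RAD and 79.6% of ULB samples, so its boundary passed the ULB limit but not that for RAD.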

How the data were processed

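Hi-C, RNA-seq and pooled H3K27ac ChIP-seq files were used as deposited, grouped by the deposited labels. The members, gene lists and tests were chosen with earlier results of these data known.

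The TAD files hold the start and end of each TAD, which the authors called with deDoc on balanced, between-sample normalized 20-kb matrices of build Sscrofa11.1. The A-B index is a score without unit that the authors deposited per 20-kb bin. It and the TAD calls come without contact counts, so their precision is given by the spread between samples only. The authors deposited estimated counts and TPM per gene, from kallisto 0.43.0 as named in the submitters' processing notes. The tables made with ROSE give the signal that the authors measured over stitched H3K27ac regions, from reads handled with BWA 0.7.15 and SAMtools 1.3.1, and only their positions were used. The counts and the A-B index each came with 9 columns that matched no label and were not used. Columns of comparisons were not used.

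Counts were rounded and tested on protein-coding genes with edgeR 4.0.16 (TMM, quasi-likelihood) in R 4.3.3, after tests on simulated data, over the samples of the 2 groups compared. Samples held 3337098 to 22939420 counts (median 16791659). The labels do not say that samples came from separate pigs, so p-values measure the spread between samples. The study took all 4 depots from each pig, so samples compared between depots can share pigs, which the main fits ignore. Genes were placed by RefSeq symbol, and 13052 of 18725 autosomal RefSeq genes matched 1 expression identifier. Positions, shares and motifs were computed with Python 3.11.15.

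Named are the 12 regions with the widest gap, the gene start nearest to each, near genes called in 1 direction against all 3 depots in WG, near genes called between diets in ULB, and EN1 and TCF21. The nearest starts to R22, R32 and R45 (PKIA, ARHGAP24 and BCHE) lie beyond 100 kb, and PKIA counts as a near gene through R21. Whether replicate numbers pair the samples was checked by correlating deviations from the group means. Every pair was above 0.1 for ULB with GOM in NC (4 pairs, median 0.128), with MAD in WG (30 pairs, 0.617) and with RAD in WG (33 pairs, 0.556), and not in the other 6 depot comparisons. With GOM in WG, 37 of 38 pairs were above it (median 0.603). On the 4 or 5 pairs of NC the check cannot show that the numbers do not pair the samples.

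The alternatives were other share limits, windows, merging distances and sets of diets, DESeq2 1.42.0, no filter, the replicate block, a term for the share of TPM on protein-coding genes, genes within 40 kb, depot medians of the A-B index, and each NC ULB sample left out.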

Additional observations from a re-analysis of the deposited data

Results flagged for a closer look

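Of 66 groups of 4 to 10 samples of the named genes and the region counts, 6 (9.09%) had a sample far from the others by Dixon's test at 95%, where chance flags about 1 in 20. ITGA1 was at 135 TPM in 1 WL MAD sample, with the next at 91.8, and at 154 TPM in 1 WL RAD sample, with the next at 99.04. NCAM2 was at 0.765 TPM in 1 NC GOM sample, with the next at 0.372, and at 1.08 TPM in 1 WL MAD sample, with the next at 0.531. LRRN3 was at 6.79 TPM in 1 WL GOM sample, with the next at 3.58. PAMR1 was at 12.3 TPM in 1 WL GOM sample, where the next lowest had 20.7.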

How the results depend on the processing

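The number of regions depends on the limits. It was 16 at 70% and 30%, 240 at 50% and 30%, 104 with the diets weighted equally, 124 without WG and 30 among samples with 5000 to 5500 TAD ends, and it lay between 43 and 72 under the 7 other settings. The sets limited by TAD number were chosen after seeing the data. These totals do not show which regions recurred. Without WG, most regions of the main rule were not found again, and the same held among samples with 5000 to 5500 TAD ends. R1 to R5 were lost under each of these settings, while R48, R49 and R50 were kept under each. R32, R49 and R57 were found under all 12 settings.

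The near genes called changed as follows. In paired fits with the replicate block they numbered 10 against GOM in NC and 2 against RAD in NC. They moved by under 1.5 times in the other depot comparisons. For RAD in NC, 1 of 5 pairs passed the correlation check. With DESeq2 they numbered 14 against MAD in NC. Without the filter they numbered 12 against RAD in WG and 6 from NC to WG. With the share of TPM on protein-coding genes as a term they numbered 7 from WG to WL. Of the 35 or 36 genes tested within 40 kb, beside 74 to 77 within 100 kb, 8, 1 and 0 were called against GOM, MAD and RAD in NC, 3, 4 and 2 in WG, and 4, 3 and 1 in WL, where 25.4%, 7.73% and 4.32%, 17.9%, 14.4% and 9.27%, and 6.16% higher with 9.81% lower, 14.4% and 4.34% of all genes were called. Leaving out each NC ULB sample gave 5 to 7 against MAD in NC (5 without replicate 12), 3 to 4 against RAD in NC, 15 to 23 against GOM in NC and 1 to 2 from NC to WG. COMMD2, not called, turned to 0.0524 against GOM and 0.0146 against RAD in WG on the log2 scale with that term.

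Over all genes, calls without the filter were 3770 against 2456 for GOM, 3239 against 1971 for MAD and 2152 against 1237 for RAD in WG, and 1124 against 323 from NC to WG. With the block they were 1297 against 3638 for GOM and 259 against 594 for RAD in NC. From NC to WG they were 101 with the share term and 110 to 382 with 1 NC ULB sample left out. The cause of these changes was not tested. NC has 5 ULB samples, and the TAD calls give no depth.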
